A study of Mus musculus with 24 samples.

Results

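A set of 9 genes of regulated cell death was followed across the kidney libraries of a Pld4 knockout study: the death receptor gene Fas, the kinase genes Ripk1 and Ripk3, the necroptosis effector gene Mlkl, the caspase genes Casp8, Casp1 and Casp4, the pore gene Gsdmd, and Acsl4, a lipid enzyme gene of ferroptosis. They were taken by symbol from the deposited count file, which holds 23955 genes, and all 9 were found there and passed the filter on low counts that left 15080 genes for testing. RNA came from kidney tissue of mice in 6 groups of 4 libraries: PLD4-/- (KO) and PLD4+/+ (WT), each at day 0 (control), day 5 and day 10 of UUO. UUO, unilateral ureteral obstruction, is an operation that ties off a ureter, after which the kidney behind it loses tubules, fills with leukocytes and scars. The allele behind the knockout, the strain, age and sex of the animals, and whether each library is 1 animal are not stated in the labels, so p-values measure the spread between these libraries. Total counts ran from 9800888 to 22542866 per library.

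Pld4 itself, the gene named in the knockout, was counted in every library labelled KO (mean 9.41 CPM at day 0, 20.4 at day 5 and 37.3 at day 10) as in WT (6.61, 49.0 and 81.7 CPM). Its log2 fold change in KO against WT was 0.51 ± 0.29 SE at day 0 and -1.27 ± 0.27 at day 5, neither called (edgeR adjusted p = 0.433 and 0.0695). At day 10 Pld4 was lower in KO (-1.13 ± 0.27, edgeR adjusted p = 0.0322). Its change from day 0 was smaller in KO than in WT at day 5 (log2 difference -1.77 ± 0.40, edgeR adjusted p = 0.0376) and at day 10 (-1.64 ± 0.39, 0.0222). The labels do not say which exons the knockout lacks, so counts at day 0 check nothing about the genotype. WT day 10 replicates 2 and 3 stood apart from the other 22 libraries on the second principal component, which held 9.5% of the variance. Their 9 neutrophil marker genes summed to 4108 and 6716 CPM, against 26.7 and 27.7 CPM in the other two WT day 10 libraries and 11.7 to 22.4 CPM in the KO day 10 libraries. Their 10 proximal tubule markers summed to 354 and 887 CPM, against 2667 and 7359 CPM in the other two. Calls of the 9 genes that rest on WT at day 10 are therefore given with and without both libraries. The day 10 values of Pld4 above are given only with both. CPM is a count scaled to library size, here with TMM, a correction for differences in library makeup.

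Necroptosis is a lytic form of cell death that runs from death receptors such as FAS through the kinases RIPK1 and RIPK3 to MLKL, which RIPK3 phosphorylates and which then breaks the plasma membrane. Caspase-8, bound to the adaptor FADD, starts apoptosis and at the same time holds RIPK1 and RIPK3 in check. Pyroptosis is the inflammatory counterpart, in which inflammasome sensors activate caspase-1, or cytosolic lipopolysaccharide activates caspase-11 (encoded by mouse Casp4), and either enzyme cuts gasdermin D to release its pore-forming part. ACSL4 loads long polyunsaturated fatty acids into membrane lipids, the substrates whose peroxidation kills cells in ferroptosis. Caspase-1, caspase-11, gasdermin D, RIPK3 and MLKL are known to be made by macrophages and other leukocytes and also by injured tubule cells.

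The 9 genes fell into a low and a high range at rest when compared per transcript length, in the FPKM values deposited by the authors (fragments per kilobase of transcript, scaled to library depth). In WT kidney at day 0, Casp8 had the highest mean level, 9.76 FPKM ± 1.48 (SD, n = 4), followed by Acsl4 (6.03 ± 0.776), Fas (5.42 ± 0.677) and Ripk1 (4.67 ± 0.339). Gsdmd (1.00 ± 0.0988 FPKM), Mlkl (0.421 ± 0.0739), Casp1 (0.411 ± 0.231), Casp4 (0.41 ± 0.0941) and Ripk3 (0.264 ± 0.206) were lower, and the last 4 of these overlapped between libraries. At KO day 0 the order of the top 4 was the same, with Casp8 at 10.5 FPKM ± 1.4 and Ripk1 at 6.24 ± 0.481, and Gsdmd (2.92 ± 0.294 FPKM) and Casp1 (2.87 ± 0.757) followed above Casp4 (1.35 ± 0.241), Mlkl (1.14 ± 0.23) and Ripk3 (0.418 ± 0.0794).

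By day 10 the 2 ranges had met. In KO day 10 kidneys Casp8 (20.6 FPKM ± 2.09), Casp4 (18.2 ± 3.74), Gsdmd (18.1 ± 2.09) and Acsl4 (17.2 ± 1.22) overlapped one another, and Ripk3 was lowest at 4.29 ± 1.24 FPKM. In WT day 10 kidneys Casp4 had the highest mean level, 29.5 FPKM ± 20.8, and Mlkl the lowest, 7.6 ± 4.29, with wide ranges over libraries: Casp4 had 18.03, 34.996, 56.2 and 8.83 FPKM in replicates 1 to 4. Casp8 (14.1 to 29.3 FPKM) and Acsl4 (14.97 to 50.1 FPKM) did not overlap Ripk1 (8 to 13.1 FPKM) or Mlkl (3.28 to 12.7 FPKM), and all other pairs overlapped. FPKM and TMM-scaled counts differ in their centre here: between day 10 and day 0 the median gene moved by 0.54 (WT) and 0.51 (KO) on the log2(FPKM + 1) scale and by 0.14 and 0.05 on the count scale. FPKM is therefore used here to order genes within a group, and changes between groups are given on the count scale, with FPKM fits as an alternative.

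**Figure D1:**
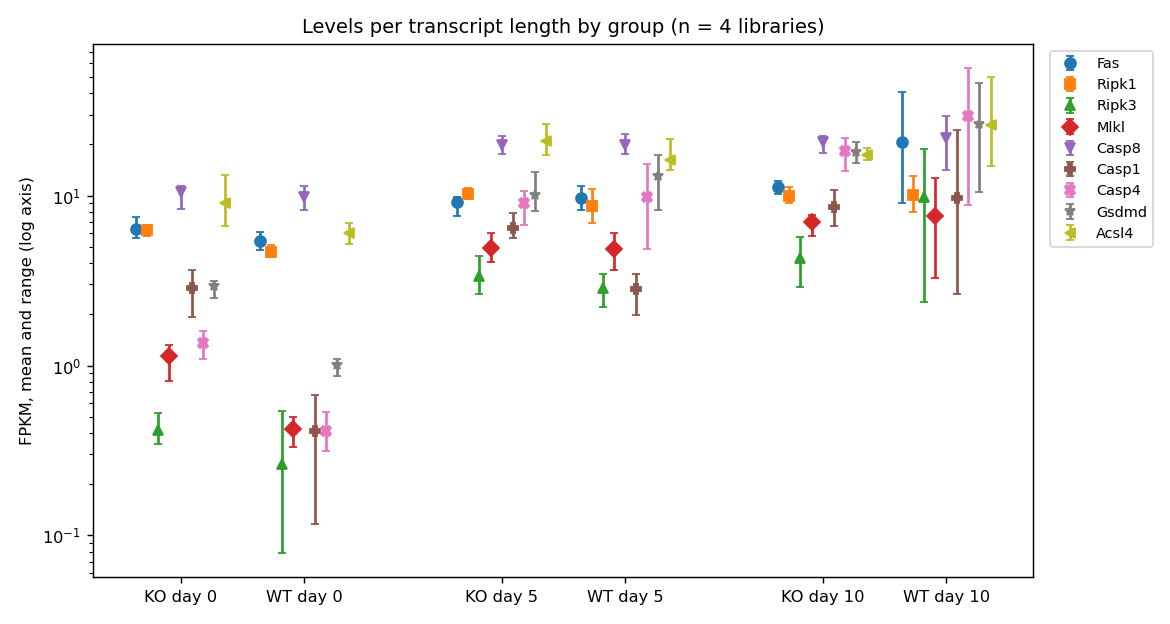
Mean FPKM (marker) and range over the 4 libraries (whiskers) of the 9 genes in each group, on a log axis. At WT day 0 Casp8, Acsl4, Fas and Ripk1 lie above 4 FPKM and the other 5 genes near or below 1 FPKM, and at day 10 the ranges of Casp4 and Gsdmd overlap that of Casp8 in both genotypes.

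The first comparison asked whether the knockout kidney differed before obstruction. At day 0, 3 of the 9 genes were higher in KO than in WT and none was lower, where 4.26% of the 15080 genes passed in either direction (adjusted p under 0.05, edgeR's quasi-likelihood test) and 3.78% were higher. The 3 were Casp1, Gsdmd and Mlkl. The median log2 fold change over the 9 genes was 0.50, beside 0.02 over all genes tested.

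Casp1, the protease that matures interleukin-1β and cuts gasdermin D, had 7.3, 9.66, 4.89 and 7.76 CPM in the KO day 0 libraries, against 0.511, 1.008, 1.41 and 1.79 CPM in the WT day 0 libraries. Every KO library lay above every WT library. The share of all genes whose groups are separated in this way is not given, here or for the genes below. The log2 fold change of Casp1 was 2.64 ± 0.55 (SE), with an adjusted p of 0.00693 from edgeR, and the call held when any 1 of the 24 libraries was left out.

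Gsdmd, which encodes the pore protein, had 8.32, 10.5, 9.32 and 9.54 CPM in KO day 0 kidneys, against 3.66, 4.03, 3.79 and 2.73 CPM in WT day 0 kidneys. The groups did not overlap. Its log2 fold change was 1.40 ± 0.35 (edgeR adjusted p = 0.0217), and the call was lost without any 1 of 5 libraries of day 0 (WT replicates 1, 3 and 4 and KO replicates 2 and 4), at values of 1.28 to 1.43.

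Mlkl had 3.48, 3.89, 2.75 and 3.8 CPM in KO day 0 kidneys, against 1.19, 1.68, 1.23 and 1.71 CPM in WT day 0 kidneys. The groups again did not overlap. Its log2 fold change was 1.25 ± 0.34 (edgeR adjusted p = 0.0361), and the call was lost without any 1 of 7 of the 8 day 0 libraries (all but KO replicate 3), at 1.16 to 1.32. On the log2(FPKM + 1) scale, which damps low genes, Mlkl and Gsdmd did not pass (adjusted p = 0.245 and 0.0761 with the filter, from limma).

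Casp4, the sensor of cytosolic lipopolysaccharide, had 4.16, 4.01, 2.9 and 2.72 CPM in KO day 0 kidneys, against 0.851, 1.26, 0.881 and 1.11 CPM in WT day 0 kidneys. These groups did not overlap either. The log2 fold change of 1.73 ± 0.53 did not pass (edgeR adjusted p = 0.0678). It passed with DESeq2 (1.72, adjusted p = 0.00864), with the replicate number as a block (1.75, adjusted p = 0.0361) and without WT day 10 replicates 2 and 3 (1.73, adjusted p = 0.00518), which enter the shared estimate of the spread. Without them 4 of the 9 genes were called, where 8.32% of all genes were.

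The upstream genes showed smaller differences or none that could be told from the spread. Ripk1, the kinase and scaffold below death receptors, was 47.6 to 51.9 CPM in KO day 0 kidneys and 40.0 to 42.8 CPM in WT day 0 kidneys, which did not overlap. Its log2 difference was 0.26 ± 0.14 and did not pass (edgeR adjusted p = 0.399), except when only these 2 groups were fitted (0.27, adjusted p = 0.031). Ripk1 shares exon sequence with Serpinb6a on the opposite strand in the GENCODE annotation of GRCm38, and strand use in the authors' counting is not stated, so reads of the pair cannot be told apart. Exons of Ripk1 also overlap those of Gm17084 on the same strand, a gene that is not in the count file.

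Ripk3 had 1.19, 1.18, 1.68 and 1.24 CPM in KO day 0 kidneys, against 0.511, 1.85, 1.15 and 0.256 CPM in WT day 0 kidneys, from 62 counts over the KO group and 44 over the WT group. The groups overlapped, and at this depth a difference was not detectable (0.50 ± 0.57, edgeR adjusted p = 0.766). Fas averaged 14.96 CPM ± 2.44 in KO and 13.6 ± 0.963 in WT (SD, n = 4 each), and Casp8 43.6 ± 4.91 in KO and 45.5 ± 4.98 in WT, with overlapping groups and differences of 0.14 ± 0.33 and -0.06 ± 0.15. Acsl4 averaged 79.1 CPM ± 22.2 in KO and 59.6 ± 4.81 in WT, a difference of 0.41 ± 0.27 that did not pass (edgeR adjusted p = 0.514).

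Markers of leukocytes moved with these genes. In bulk tissue, more cells of a type and more RNA per cell cannot be told apart. At day 0 the 10 macrophage markers summed to 297 to 389 CPM in KO kidneys, against 149 to 220 CPM in WT kidneys, and 7 of the 10 were higher in KO, with Csf1r not among them (0.10 ± 0.23). The 9 T cell markers summed to 22.2 to 43.5 CPM in KO, against 4.7 to 9.13 CPM in WT, and 8 of the 9 were higher. The 9 neutrophil markers summed to 3.74 to 6.01 CPM in KO and 1.54 to 3.26 CPM in WT, and of the 6 tested none passed. Of 10 proximal tubule markers none passed, at 14103 to 20612 CPM in KO and 18588 to 22552 CPM in WT. The part of these cell types in the day 0 differences was not tested.

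**Figure D2:**
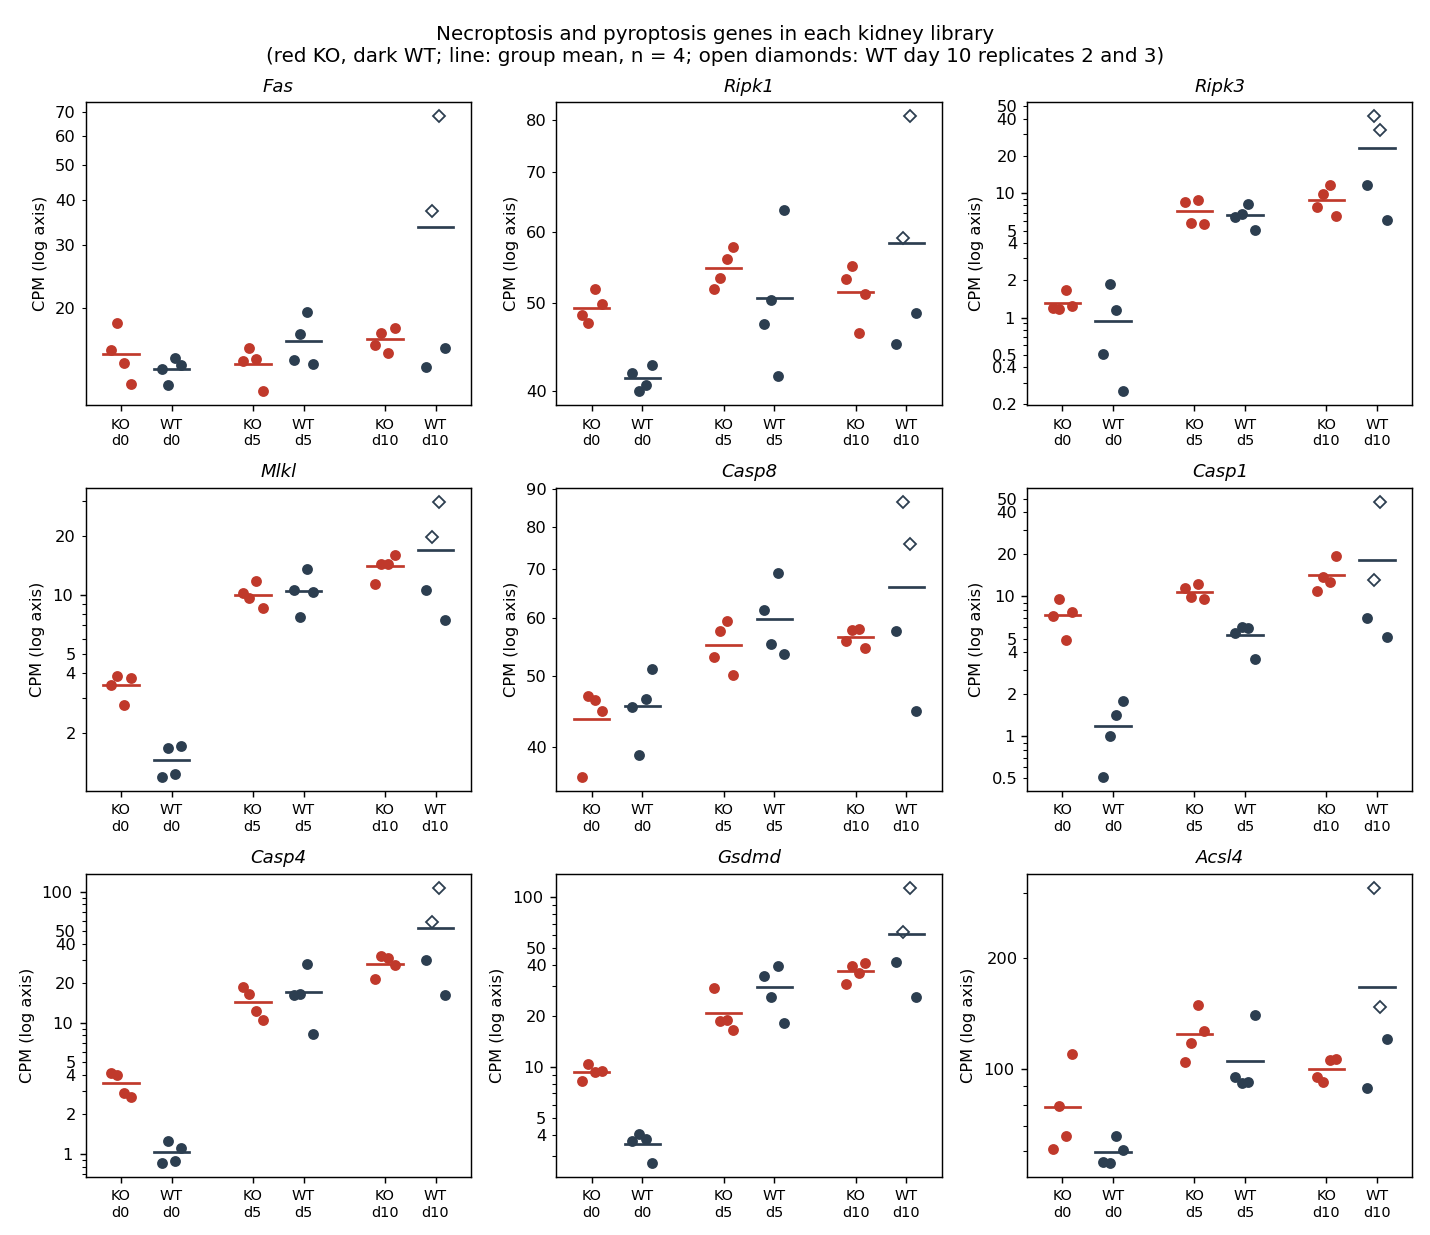
CPM of each gene in all 24 libraries, on log axes that differ between panels, with KO (red) left of WT (dark) at each day, a line for each group mean and open diamonds for WT day 10 replicates 2 and 3. At day 0 the KO points lie above the WT points for Casp1, Casp4, Gsdmd, Mlkl and Ripk1, and at day 10 the 2 open diamonds set the WT mean of Fas, Ripk3 and Casp4.

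The DNA upstream of Casp1, Casp4 and Mlkl is shown because Casp1 and Casp4 are neighbours in the genome and all 3 had KO libraries at day 0 that did not overlap WT, although the Casp4 difference did not pass. Casp1, Casp4 and Casp12 follow one another on chromosome 9. The RefSeq promoter table (GRCm38.p6) held 8 of the 9 genes, with no entry matched for Gsdmd. The 250 bases before the most upstream start listed are printed for Casp1 (chr9:5298267-5298516, plus strand), Casp4 (chr9:5308599-5308848, plus strand) and Mlkl (chr8:111338206-111338455, minus strand), and for Fas (chr19:34290409-34290658, plus strand) as a gene with no detectable difference. Each is written 5′ to 3′ on the gene's strand, and capitals mark motif matches.
Casp1: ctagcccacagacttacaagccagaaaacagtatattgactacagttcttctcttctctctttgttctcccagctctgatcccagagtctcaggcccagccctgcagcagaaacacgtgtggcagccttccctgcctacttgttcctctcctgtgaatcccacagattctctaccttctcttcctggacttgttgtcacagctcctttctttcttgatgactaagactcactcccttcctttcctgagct
Casp4: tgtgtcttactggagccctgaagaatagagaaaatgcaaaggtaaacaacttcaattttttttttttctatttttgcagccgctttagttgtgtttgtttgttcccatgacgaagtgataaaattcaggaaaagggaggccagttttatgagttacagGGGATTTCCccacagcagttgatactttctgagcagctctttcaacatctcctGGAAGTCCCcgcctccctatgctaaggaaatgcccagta
Mlkl: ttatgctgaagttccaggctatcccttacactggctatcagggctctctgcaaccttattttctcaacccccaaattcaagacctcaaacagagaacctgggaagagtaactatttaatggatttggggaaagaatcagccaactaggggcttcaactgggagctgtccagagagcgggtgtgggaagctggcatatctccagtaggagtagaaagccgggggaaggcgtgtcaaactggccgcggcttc
Fas: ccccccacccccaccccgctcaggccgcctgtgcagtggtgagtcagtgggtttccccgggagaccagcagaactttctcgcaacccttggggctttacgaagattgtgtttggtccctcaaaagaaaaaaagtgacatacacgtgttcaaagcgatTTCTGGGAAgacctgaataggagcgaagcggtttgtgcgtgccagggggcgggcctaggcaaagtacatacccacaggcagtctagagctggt
Capitals in Casp4 are 2 matches to GGGNNTTCC, the core of an NF-κB site, at 92 and 39 bases before the start on opposite strands, and capitals in Fas are 1 match to TTCNNNGAA, the core of a gamma-activated site bound by STAT factors, 93 bases before the start. Both strands were searched. TTCNNNGAA is present in 7.14% of 27019 windows of the same length and in 1 of the 8 members, and GGGNNTTCC in 4.85% of windows and in 1 of the 8. The core of an interferon-stimulated response element (3.05% of windows) and TATAAA (13% of windows) matched in none of the 8 members, which says only that these letters are not in these windows. GGGNNTTCC was added after the sequences had been seen. The matches are a description of the sequence and were not tested for binding.

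The second comparison asked how obstruction changed these genes in WT kidney. At day 5, 7 of the 9 genes were higher than at day 0 and none lower, where 56.6% of all genes passed and 32.7% were higher. At day 10 all 9 were higher, where 68.1% of all genes passed and 38.6% were higher. With so many genes called, a count of calls sets the 9 genes little apart. The median log2 fold change of the 9 genes was 2.15 at day 5 and 3.52 at day 10, beside 0.12 and 0.14 over all genes. Both days are set against the same 4 day 0 libraries. Of the 10 macrophage markers 9 were higher at day 5 and 10 at day 10 in WT (median log2 fold change 3.34 and 4.65, and 3.65 at day 10 without replicates 2 and 3), and of the 10 proximal tubule markers 8 and 10 were lower. Their part in the changes of the 9 genes was not tested.

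Casp4 had the largest change of the 9 at both days. It averaged 1.03 CPM ± 0.194 at day 0, 17.2 ± 8.09 at day 5 and 52.8 ± 40.0 at day 10 in WT kidney (SD, n = 4 each). The day 5 libraries had 16.3, 16.7, 27.9 and 8.16 CPM and the day 10 libraries 30.0, 58.3, 107 and 16.2 CPM, all above every day 0 library. The log2 fold change was 4.06 ± 0.50 at day 5 (edgeR adjusted p = 1.85e-06) and 5.67 ± 0.52 at day 10 (1.78e-08), and 4.48 ± 0.39 at day 10 without replicates 2 and 3.

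Gsdmd averaged 3.55 CPM ± 0.569 at day 0, 29.5 ± 9.41 at day 5 and 60.8 ± 38.2 at day 10 in WT. Its day 5 values were 34.6, 25.9, 39.4 and 18.1 CPM and its day 10 values 41.3, 62.7, 113 and 25.9 CPM, again all above day 0. It rose by 3.05 ± 0.35 at day 5 (edgeR adjusted p = 6.44e-07) and by 4.09 ± 0.36 at day 10 (9.95e-09), and by 3.24 ± 0.27 at day 10 without replicates 2 and 3.

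Mlkl had 10.5, 7.74, 13.5 and 10.3 CPM at day 5 and 10.6, 19.6, 29.6 and 7.43 CPM at day 10 in WT, and rose by 2.85 ± 0.33 and 3.52 ± 0.33 over day 0. Ripk3, the kinase that activates it, had 6.45, 6.84, 8.2 and 5.06 CPM at day 5 and 11.7, 41.8, 32.5 and 6.05 CPM at day 10, and rose by 2.81 ± 0.52 and 4.6 ± 0.54. At day 10 the Ripk3 values split into 2 libraries above 30 CPM and 2 below 12 CPM. Without the 2 high libraries the day 10 changes were 2.63 ± 0.23 for Mlkl and 3.23 ± 0.41 for Ripk3, both past the threshold.

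Casp1 had 5.49, 6.06, 5.94 and 3.56 CPM at day 5 and 6.99, 13.1, 47.4 and 5.15 CPM at day 10 in WT. It rose by 2.15 ± 0.55 at day 5 (edgeR adjusted p = 0.0026) and by 3.93 ± 0.56 at day 10 (4.07e-06), or 2.36 ± 0.34 at day 10 without replicates 2 and 3. A single library, replicate 3, was more than all others of the day 10 group together.

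The 4 genes that were high at rest had smaller log2 changes. Acsl4 had 95.2, 91.7, 92.5 and 141 CPM at day 5 and 88.8, 309.7, 148 and 121 CPM at day 10 in WT. It rose by 0.82 ± 0.27 at day 5 (edgeR adjusted p = 0.0134; 0.64, adjusted p = 0.0507, without WT day 5 replicate 4) and by 1.48 ± 0.27 at day 10 (6.85e-05; 0.81 ± 0.21, still called, without day 10 replicates 2 and 3). Casp8, the brake on necroptosis, was 53.6 to 69.1 CPM at day 5 and 44.8 to 86.5 CPM at day 10, against 39.0 to 51.0 CPM at day 0. Its rise of 0.40 ± 0.15 at day 5 (edgeR adjusted p = 0.0282) was lost under RLE scaling (0.30, adjusted p = 0.0926), under DESeq2 (0.31, adjusted p = 0.102) and without any 1 of 9 libraries (0.29 to 0.38).

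Ripk1 and Fas passed in WT at day 10 whichever single library was left out, but not without replicates 2 and 3 together. Ripk1 had 47.4, 50.4, 41.5 and 63.6 CPM at day 5 and 45.1, 59.0, 80.7 and 48.9 CPM at day 10, changes of 0.30 ± 0.14 (not called, edgeR adjusted p = 0.0747) and 0.50 ± 0.14 (0.00354). The day 5 change of Ripk1 was called without WT day 10 replicates 2 and 3 (0.30, adjusted p = 0.016), without WT day 10 replicate 3 alone and without WT day 5 replicate 3. Fas had 14.3, 17.0, 19.5 and 14.0 CPM at day 5 and 13.7, 37.2, 68.3 and 15.5 CPM at day 10, changes of 0.26 ± 0.32 (not called) and 1.31 ± 0.33 (0.00133). Without day 10 replicates 2 and 3 the day 10 calls of Ripk1 (0.19 ± 0.12), Fas (0.11 ± 0.16) and Casp8 (0.17 ± 0.13; 0.54 ± 0.15 with them) were lost, which left 6 of the 9 genes called, where 56.4% of all genes were. Fas lies next to Acta2, the smooth muscle actin gene of myofibroblasts.

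In KO kidney the genes called after obstruction were the necroptosis pair Ripk3 and Mlkl and the pyroptosis genes Casp4 and Gsdmd. At day 5, these 4 of the 9 were higher than at day 0, where 39.1% of all genes passed and 22.7% were higher. At day 10, 5 of the 9 were higher, with Casp8 added, where 54.2% of all genes passed and 28.5% were higher. None was lower at either day, and the median log2 fold change of the 9 was 0.66 at day 5 and 0.94 at day 10, beside 0.02 and 0.05 over all genes. Of the 10 macrophage markers 9 were higher at day 5 and 10 at day 10 in KO (median 1.86 and 2.27), and of the 10 proximal tubule markers 7 and 10 were lower, and their part was not tested.

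Casp4 averaged 3.45 CPM ± 0.742 at day 0, 14.5 ± 3.85 at day 5 and 28.1 ± 4.73 at day 10 in KO. Its libraries had 18.7, 16.6, 12.2 and 10.4 CPM at day 5 and 21.7, 32.2, 31.0 and 27.6 CPM at day 10, so that day 10 did not overlap day 5. The rise over day 0 was 2.08 ± 0.44 at day 5 (edgeR adjusted p = 0.000998) and 3.04 ± 0.45 at day 10 (1.51e-05). Gsdmd had 29.3, 18.6, 18.9 and 16.6 CPM at day 5 and 31.0, 39.3, 36.0 and 41.3 CPM at day 10, and rose by 1.15 ± 0.32 and 1.97 ± 0.33 over day 0.

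Ripk3 had 8.48, 5.81, 8.9 and 5.68 CPM at day 5 and 7.7, 9.84, 11.6 and 6.55 CPM at day 10 in KO, and rose by 2.43 ± 0.50 and 2.74 ± 0.50. Mlkl had 10.2, 9.63, 11.7 and 8.61 CPM at day 5 and 11.3, 14.4, 14.3 and 16.0 CPM at day 10, and rose by 1.53 ± 0.30 and 2.01 ± 0.31. These 4 genes passed at both days in KO whichever single library was left out. Casp8 was 50.1 to 59.4 CPM at day 5 and 54.6 to 58.0 CPM at day 10, against 36.3 to 46.9 CPM at day 0. Its day 5 change of 0.34 ± 0.15 did not pass with all libraries (edgeR adjusted p = 0.0774). It passed with edgeR without WT day 10 replicates 2 and 3 (0.34, adjusted p = 0.0163) and with only these groups fitted (0.35, adjusted p = 0.0348). Leaving out WT day 10 replicate 2 alone (edgeR adjusted p = 0.0439) or replicate 4 alone (0.0293) also gave a call, as did the FPKM fits. Its day 10 change passed (0.38 ± 0.15, edgeR adjusted p = 0.0378), and it was lost under RLE scaling (0.36, adjusted p = 0.0515), under DESeq2 (0.36, adjusted p = 0.0538) and without any 1 of 7 libraries (0.29 to 0.39).

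Casp1, already high at KO day 0, had 11.4, 9.91, 12.4 and 9.56 CPM at day 5 and 10.9, 13.7, 12.7 and 19.5 CPM at day 10. Its changes of 0.55 ± 0.47 and 0.94 ± 0.47 did not pass (edgeR adjusted p = 0.37 and 0.0976). The day 10 libraries did not overlap day 0, and how many of all genes were separated in this way was not counted. The day 10 change passed without WT day 10 replicate 3 (0.94, adjusted p = 0.0107) and without WT day 10 replicates 2 and 3 (0.95, adjusted p = 0.00277). With only the groups compared fitted, Casp1 passed at day 5 (0.56, adjusted p = 0.0457) and at day 10 (0.92, adjusted p = 0.00372). Acsl4 was 105 to 149.7 CPM at day 5 and 92.6 to 107 CPM at day 10, against 60.6 to 110.1 CPM at day 0, and its changes of 0.66 ± 0.27 and 0.34 ± 0.27 did not pass (edgeR adjusted p = 0.0549 and 0.288). At day 5 it did pass with the replicate block (0.68, adjusted p = 0.0399) and without WT day 10 replicates 2 and 3 (0.66, adjusted p = 0.00376).

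Ripk1 averaged 49.5 CPM ± 1.89 at day 0, 54.8 ± 2.61 at day 5 and 51.5 ± 3.77 at day 10 in KO, and Fas 14.96 ± 2.44, 14.0 ± 1.59 and 16.4 ± 1.21. Their 4 log2 changes over day 0 lay between -0.09 and 0.15 and none passed. On FPKM, whose centre moves with obstruction, 8 of the 9 genes passed at day 5 (63.4% of all genes did) and 9 at day 10 (70.2%) in KO with limma on log2(FPKM + 1). Ripk1, Casp1 and Acsl4 at both days, Casp8 at day 5 and Fas at day 10 passed there but not with edgeR on the counts of all 24 libraries.

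**Figure D3:**
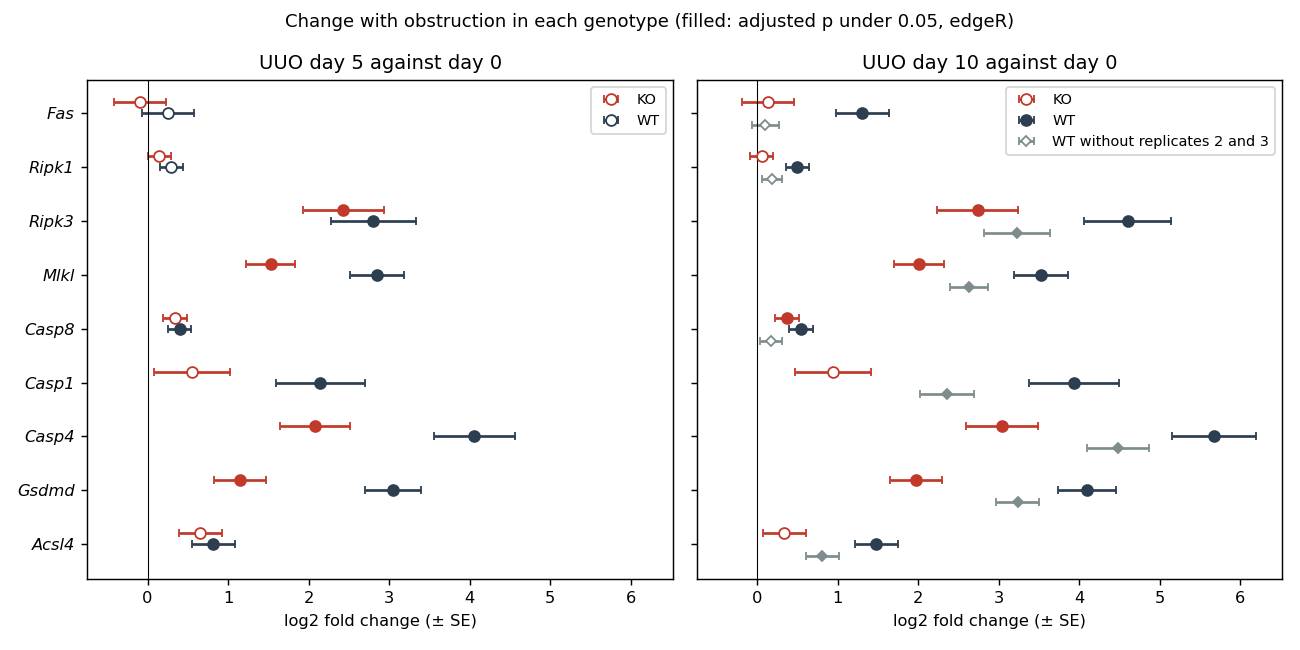
Log2 fold change (± SE) of each gene at day 5 (left) and day 10 (right) of obstruction against day 0, in KO (red) and WT (dark), with WT at day 10 without replicates 2 and 3 in grey and filled symbols for adjusted p under 0.05. Casp4, Gsdmd, Mlkl and Ripk3 passed in both genotypes at both days, with larger log2 values in WT, and Fas and Ripk1 lie near 0 in KO.

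The design allows a direct test of whether the response to obstruction differed between genotypes, as the KO change minus the WT change. All 9 differences were negative at both days, except that without WT day 10 replicates 2 and 3 Casp8 (0.205) and Fas (0.03) were positive at day 10. At day 5 none passed the threshold, where 0.676% of all genes did. With edgeR 4 of the 9 had an unadjusted p under 0.05, as did 2106 of the 15080 genes tested. Gsdmd came nearest at -1.90 ± 0.47 (edgeR adjusted p = 0.0645), followed by Casp4 at -1.98 ± 0.66, Casp1 at -1.59 ± 0.72 and Mlkl at -1.32 ± 0.44. DESeq2 called 1 of the 9 (Gsdmd, -1.86, adjusted p = 0.012), where it called 1.71% of all genes, and so did edgeR with the replicate block (Gsdmd, -1.89, adjusted p = 0.0483). Without WT day 10 replicates 2 and 3, which enter this comparison only through the shared spread, these 4 were called lower, where 4.22% of all genes were called: Gsdmd -1.90 ± 0.32 (adjusted p = 0.00129), Mlkl -1.31 ± 0.28 (0.00801), Casp4 -1.97 ± 0.48 (0.019) and Casp1 -1.59 ± 0.39 (0.0221). In that fit 8 of 10 macrophage and 4 of 9 T cell markers were also lower in the day 5 response, against 1 and 0 with all libraries, and their part was not tested.

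At day 10 the response was smaller in KO for 3 of the 9 genes, where 3.37% of all genes passed and 3.25% were lower. The 3 were Gsdmd (-2.12 ± 0.46, edgeR adjusted p = 0.0129), Casp1 (-2.99 ± 0.72, 0.0225) and Casp4 (-2.64 ± 0.66, 0.0277). Mlkl was at -1.51 ± 0.44 (adjusted p = 0.0615), Ripk3 at -1.86 ± 0.72, Fas at -1.18 ± 0.46 and Acsl4 at -1.14 ± 0.38, and none of these passed with edgeR on all libraries. With DESeq2, which called 5.6% of all genes, Mlkl passed as well (-1.49, adjusted p = 0.0358). Without WT day 10 replicate 4, edgeR called 7 of the 9 and 1811 over all genes, and Mlkl, Ripk3, Fas and Acsl4 were among the 7. Without WT day 10 replicates 2 and 3 these 4 stood at -0.62 ± 0.31 (Mlkl), -0.49 ± 0.56 (Ripk3), 0.03 ± 0.21 (Fas) and -0.47 ± 0.27 (Acsl4). Without WT day 10 replicates 2 and 3 no gene of the 9 passed, where 1% of all genes did: Gsdmd was then at -1.27 ± 0.35 (adjusted p = 0.0933), Casp1 at -1.41 ± 0.42 (0.143) and Casp4 at -1.45 ± 0.51 (0.281). The Casp1 call was also lost without any 1 of 4 libraries (WT day 0 replicates 1 and 2, KO day 0 replicate 2 and KO day 10 replicate 1; -2.91 to -2.73) and the Casp4 call without any 1 of 8 (WT day 0 replicates 1, 3 and 4, KO day 0 replicates 1 and 2, WT day 10 replicates 2 and 3 and KO day 10 replicate 1; -2.66 to -2.04). The difference has 2 parts, the higher KO level at day 0 and the level at day 10, and it shares its day 0 libraries with the comparison at day 0.

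Macrophage markers did the same in this test, with 9 of 10 lower in the day 10 response and 8 of 10 still lower without both libraries. Their sum was 1041 to 1366 CPM in KO day 10 kidneys, against 1005 to 3606 CPM in WT day 10 kidneys, where the 2 highest were replicates 2 and 3. Of the 9 T cell markers 3 were lower in the day 10 response, and 0 without both libraries. Of the 6 neutrophil markers tested 2 were lower (median -8.40), and 1 without both libraries (median -1.60). Whether these cells account for the response differences of Gsdmd, Casp1 and Casp4 was not tested.

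The third comparison set the genotypes against each other during obstruction. At day 5 none of the 9 genes passed, where 0.146% of all genes did, and DESeq2 called 0 of the 9. Of the 15080 genes tested, 2130 had an unadjusted p under 0.05 by edgeR, and so did 1 of the 9. That gene was Casp1, at 11.4, 9.91, 12.4 and 9.56 CPM in KO day 5 kidneys, against 5.49, 6.06, 5.94 and 3.56 CPM in WT day 5 kidneys. The log2 fold change was 1.04 ± 0.48 and did not pass (edgeR adjusted p = 0.334). The groups did not overlap, as at day 0, and how many of all genes were separated in this way was not counted. Gsdmd averaged 20.8 CPM ± 5.71 in KO and 29.5 ± 9.41 in WT (-0.50 ± 0.31), Casp4 14.5 ± 3.85 and 17.2 ± 8.09, Mlkl 10.0 ± 1.3 and 10.5 ± 2.36, and Ripk3 7.22 ± 1.71 and 6.64 ± 1.29, all with overlapping groups.

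At day 10 again none of the 9 passed, where 1.44% of all genes did (217 genes, and 21 with the replicate number as a block, a pairing that the data hint at in this comparison). All 9 log2 fold changes were negative, with a median of -0.72 beside -0.02 over all genes. With edgeR 5 of the 9 had an unadjusted p under 0.05, as did 2218 of the 15080 genes tested. DESeq2 called 0 of the 9. Ripk3 (-1.37 ± 0.44, edgeR adjusted p = 0.131) and Fas (-1.04 ± 0.32, 0.114) were farthest below 0. Their KO libraries, 6.55 to 11.6 CPM for Ripk3 and 14.98 to 17.6 CPM for Fas, lay within the wide WT ranges of 6.05 to 41.8 CPM and 13.7 to 68.3 CPM. Without WT day 10 replicates 2 and 3 the values were 0.01 ± 0.37 for Ripk3 and 0.17 ± 0.16 for Fas, 8 of the 9 were positive, 0.451% of all genes passed, and the largest was Casp1 at 1.22 ± 0.31 (adjusted p = 0.118).

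The sign of the day 10 difference therefore rests on which WT libraries are counted. Leaving out WT day 10 replicate 4 instead, the library of that group with the lowest Ripk3, Casp4 and Gsdmd, gave 5 called genes and 2045 over all genes (Ripk3 -1.68, Fas -1.27, Casp4 -1.21, Gsdmd -0.97 and Acsl4 -0.86), and leaving out WT day 10 replicate 1 gave 3 (Ripk3 -1.58, Fas -1.30 and Acsl4 -0.94). The labels give no reason to prefer either pair.

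**Figure D4:**
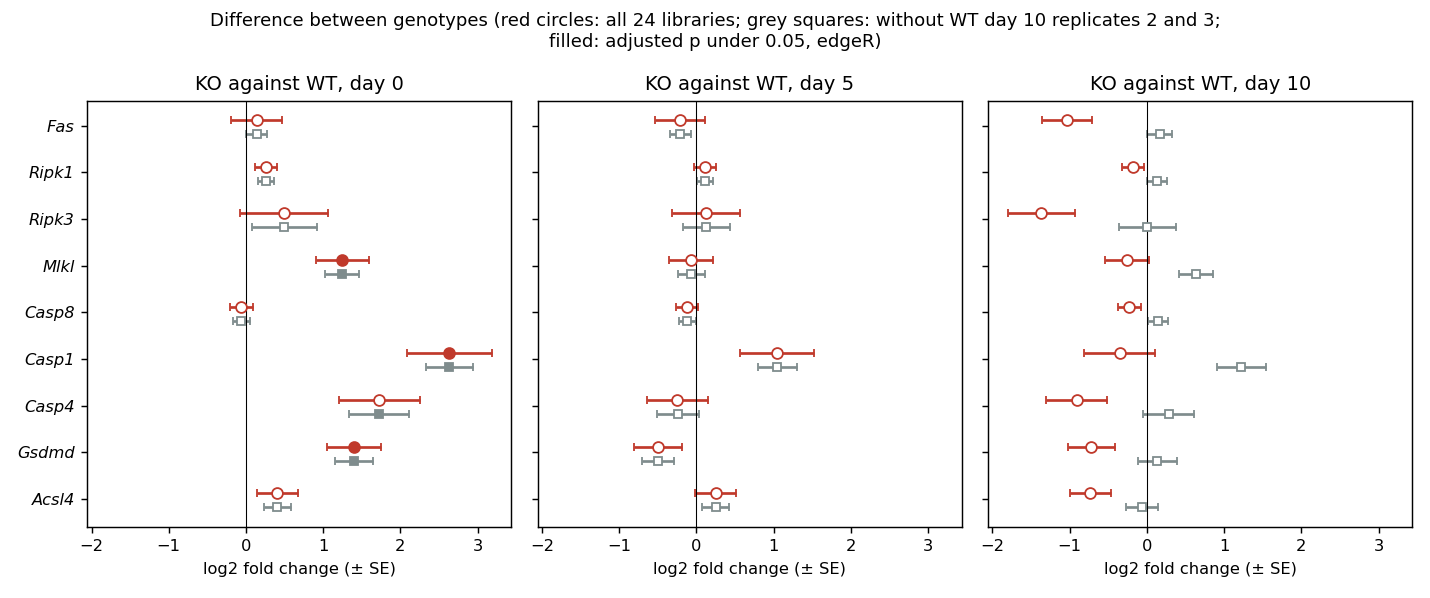
Log2 fold change (± SE) of KO against WT for each gene at day 0, day 5 and day 10, with all 24 libraries (red circles) and without WT day 10 replicates 2 and 3 (grey squares), filled where the adjusted p is under 0.05. Casp1, Gsdmd and Mlkl passed at day 0, and at day 10 the red values of all 9 genes lie below 0 while 8 of the 9 grey ones lie above it.

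The step between the 2 obstruction times was set by the same libraries. In WT, 5 of the 9 genes were higher at day 10 than at day 5 (Ripk3 1.80 ± 0.45, Casp1 1.79 ± 0.48, Casp4 1.62 ± 0.40, Fas 1.05 ± 0.32 and Gsdmd 1.04 ± 0.31), where 10.6% of all genes passed and 7.43% were higher. Without day 10 replicates 2 and 3 none of the 9 was called, nor any other gene (0% of all genes), and Fas stood at -0.15. Leaving out WT day 10 replicate 3 alone also left none of the 9. In KO, none of the 9 passed between day 10 and day 5, where 0.0199% of all genes did. DESeq2 also called 0 of the 9. Of the 15080 genes tested, 1608 had an unadjusted p under 0.05 by edgeR, and so did 2 of the 9. Those 2 were Casp4 (0.96 ± 0.40) and Gsdmd (0.83 ± 0.31), whose day 10 and day 5 libraries did not overlap in KO. How many of all genes were separated in this way was not counted.

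Genes of the surrounding pathways were read from 10 lists of 110 genes. Of the inflammasome sensors and adaptors, which activate caspase-1, 14 were tested. In KO 5 rose and 1 fell at day 5 and 9 rose and 2 fell at day 10, where 22.7% and 28.5% of all genes were higher. In WT 10 rose and 3 fell at day 5 and 11 rose and 2 fell at day 10, where 32.7% and 38.6% were higher. The median log2 fold change of this list at day 10 was 1.54 in KO and 3.57 in WT (2.78 without replicates 2 and 3), beside 0.05 and 0.14 over all genes. Nlrp1b rose by 2.29 ± 0.44 in KO and 4.16 ± 0.50 in WT at day 10 (3.78 in WT without replicates 2 and 3). The adaptor Pycard (ASC), which links sensors to caspase-1, rose by 1.32 ± 0.28 in KO and 2.25 ± 0.29 in WT (1.46 without them). Nlrp6, a sensor known from epithelia, fell by 1.99 ± 0.46 in KO and by 2.74 ± 0.47 in WT on the log2 scale (-1.98 without them). Without WT day 10 replicates 2 and 3 the day 10 list stood at 11 higher and 2 lower in KO and 10 higher and 3 lower in WT, and at day 5 in KO at 9 higher and 1 lower.

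Between genotypes, P2rx7, the ATP-gated channel that triggers NLRP3, was the 1 gene of that list that was higher in KO at day 0 (7.22 CPM in KO against 3.14 CPM in WT, 1.20 ± 0.29, edgeR adjusted p = 0.0175). In the fit without WT day 10 replicates 2 and 3, 6 of the list were higher, where 8.32% of all genes were called. At day 10 Nlrp3 and Mefv (pyrin) were lower in KO than in WT. Nlrp3 had a mean of 5.31 CPM (4.51 to 6.25) in KO and 47.2 CPM (4.79 to 104.7) in WT, a difference of -3.15 ± 0.64, and 0.04 ± 0.24 without WT day 10 replicates 2 and 3. Mefv had 1.8 CPM (0.881 to 3.3) in KO and 36.2 CPM (0.743 to 87.7) in WT, and its call was lost in the same way.

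Upstream of the kinases, Fasl, the ligand of FAS made by cytotoxic lymphocytes, was higher in KO at day 0 (27 counts over the KO group and 4 over the WT group, 2.67 ± 0.53, edgeR adjusted p = 0.00458), 1 of 8 death ligands and receptors. In the fit without WT day 10 replicates 2 and 3, 3 of the 8 were higher, where 8.32% of all genes were called. Of 17 adaptors, ubiquitin enzymes and brakes, Zbp1, a nucleic acid sensor that binds RIPK3, was the 1 that passed at day 0 (15.3 CPM in KO against 2.21 CPM in WT, 2.79 ± 0.62, edgeR adjusted p = 0.00967), and 4 passed without WT day 10 replicates 2 and 3. During obstruction 4 of the 17 rose in KO at day 5 and 6 at day 10, with none lower, while in WT 6 rose and 2 fell at day 5 and 7 rose and 2 fell at day 10 (6 and 1 without both libraries). The counts that rose are near the shares of all genes that were higher, 22.7% and 28.5% in KO and 32.7% and 38.6% in WT. The ubiquitin-editing enzyme Tnfaip3 (A20) rose by 2.55 ± 0.39 in KO and 4.36 ± 0.43 in WT at day 10 (3.18 in WT without both). Birc3 (cIAP2), a ligase for RIPK1, rose by 2.25 ± 0.29 in KO and 3.79 ± 0.31 in WT (3.01 without both). Fadd, the adaptor of caspase-8, had -0.10 ± 0.11 in KO, not called, and fell in WT (-0.40 ± 0.11 at day 10, -0.38 without both). Cflar, the caspase-8 decoy that lies next to Casp8 in the genome, did not pass in either.

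Among 6 other caspases tested, Casp12, the neighbour of Casp4, was higher in KO at day 0 (5.32 CPM in KO against 1.69 CPM in WT, 1.64 ± 0.29, edgeR adjusted p = 0.0021). It rose by 2.75 ± 0.26 in KO and 4.17 ± 0.29 in WT at day 10 (3.81 in WT without replicates 2 and 3). Of the other gasdermins and the membrane rupture gene Ninj1, 4 of 9 passed the filter. Dfna5 (gasdermin E) fell at day 10 by 0.44 ± 0.17 in KO and by 0.79 ± 0.17 in WT (-0.93 without replicates 2 and 3). Ninj1 fell by 0.80 ± 0.24 in KO and was at -0.12 ± 0.24 in WT, not called, and at -0.85, called, without both libraries.

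Interleukin-1β, interleukin-18 and interleukin-33 are released through such pores or from lysed cells. Il1b, which encodes the first, averaged 2.63 CPM at day 0, 3.02 at day 5 and 18.8 at day 10 in KO, and 0.709, 2.11 and 358 CPM in WT. The WT day 10 mean covers libraries of 3.34 to 755 CPM, and the KO difference of -4.25 ± 1.05 (edgeR adjusted p = 0.0418) became 1.87 ± 0.57 (not called, 0.282) without replicates 2 and 3. Il18 averaged 4.97 CPM at day 10 against 2.93 CPM at day 0 in KO (0.76 ± 0.34, not called) and 6.25 against 2.88 CPM in WT (1.11 ± 0.34, called; 0.21, not called, without both). Il33, a nuclear alarmin, rose by 1.65 ± 0.40 in KO and 3.98 ± 0.44 in WT at day 10 (2.53 in WT without both).

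Of the 4 other long-chain acyl-CoA synthetases, Acsl1 fell by 2.42 ± 0.32 and Acsl3 by 1.00 ± 0.19 in KO at day 10, and by 1.88 ± 0.31 and 1.06 ± 0.19 in WT (-1.68 and -0.80 without replicates 2 and 3), on the log2 scale, while Acsl5 and Acsl6 did not pass. Of 11 ferroptosis drivers 1 rose and 6 fell in KO and 3 rose and 5 fell in WT at day 10 (2 and 5 without both). Of 14 ferroptosis defences 2 rose and 9 fell in KO and 4 rose and 5 fell in WT (4 and 8 without both). Over all genes 25.7% were lower in KO and 29.5% in WT at day 10. Gpx4, the peroxidase that removes lipid peroxides, fell by 1.14 ± 0.24 in KO and by 1.56 ± 0.24 in WT at day 10 (-1.24 without both). Slc7a11, the cystine importer, had 0.529 to 1.2 CPM in KO day 10 kidneys, against 1.29 to 161 CPM in WT day 10 kidneys (-6.12 ± 1.07, edgeR adjusted p = 0.00696), and -0.70 ± 0.48, not called, without WT day 10 replicates 2 and 3.

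Mitochondrial apoptosis genes are the other exit from the same receptors. Of 19 tested, 10 rose and 4 fell in KO at day 10 and 11 rose and 4 fell in WT (12 and 4 without replicates 2 and 3), where 28.5% of all genes were higher in KO and 38.6% in WT. Between genotypes none passed with edgeR on all libraries at day 0, day 5 or day 10. In the fit without WT day 10 replicates 2 and 3, 1 was higher in KO at day 0 and 1 lower at day 5. Of all genes 8.32% and 0.758% were called there. Pmaip1 (NOXA) rose by 2.51 ± 0.27 in KO and 2.83 ± 0.27 in WT (2.82 without both), and Bbc3 (PUMA) by 1.81 ± 0.24 in KO and 2.43 ± 0.25 in WT (2.5 without both). Bid, the link from caspase-8 to mitochondria, fell by 0.97 ± 0.14 in KO and by 0.94 ± 0.14 in WT (-0.93 without both).

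**Figure D5:**
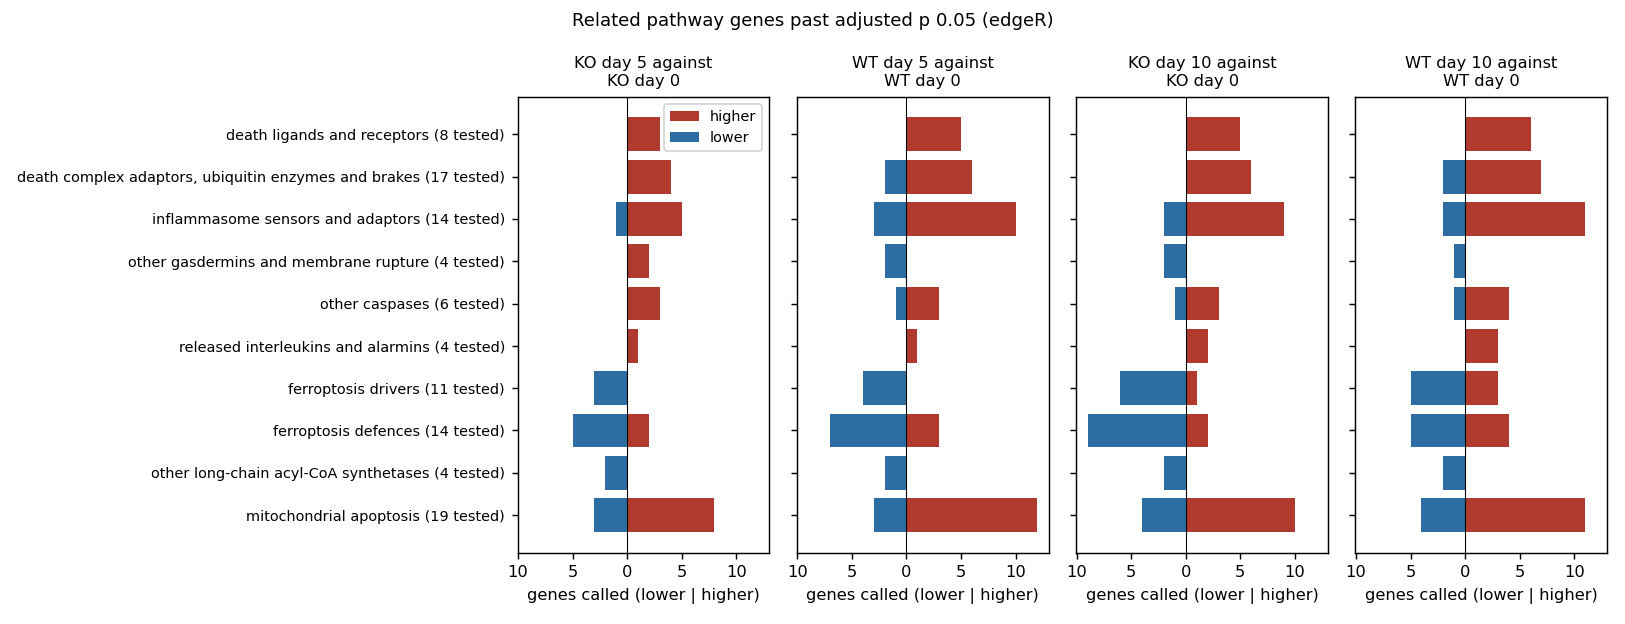
Number of genes of 10 related lists that were higher (right of 0) or lower (left of 0) at an adjusted p under 0.05 at day 5 and day 10 of obstruction against day 0, in KO and WT. At day 10 the inflammasome list held 9 higher and 2 lower genes in KO and 11 and 2 in WT, and the ferroptosis defences 2 higher and 9 lower in KO and 4 and 5 in WT.

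Likeness to other genes was measured as the root mean square difference of the 6 group means of log2 CPM after centring each gene, over 15071 genes, with no test. The nearest genes to Casp1 were AW112010 (0.135), Il2rb and Itgal (0.157 each), the last 2 being receptor and integrin genes of lymphocytes. The nearest to Ripk3 was Btk (0.138), a kinase of B cells and myeloid cells, and to Gsdmd it was Nlrp1b (0.112), an inflammasome sensor. Mlkl was nearest to Slc9a9 (0.0838) and Casp4 to Stx11 (0.162), and Fas to Star (0.0883). The range of the group means on the log2 scale was 5.2 for Casp4, 4.33 for Ripk3, 3.85 for Gsdmd, 3.53 for Casp1 and 3.24 for Mlkl, and 1.32 for Acsl4, 1.00 for Fas, 0.56 for Casp8 and 0.46 for Ripk1. Casp8 had Rit1 at 0.0224 and Ripk1 had Pramef8 at 0.036, while Acsl4 had Sh3bgrl at 0.0794. Among the 9 genes themselves the closest pairs were Ripk1 with Casp8 (0.142), Fas with Casp8 (0.242) and Mlkl with Gsdmd (0.247), and Casp1 stood farthest from its nearest member, Mlkl (0.608).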

How the data were processed

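The authors deposited raw counts per gene (23955 symbols) and FPKM per gene (23953 symbols) for 24 libraries of kidney tissue. Per the labels' protocols, TRIzol was used for extraction and TruSeq stranded mRNA kits for the libraries. The submitters' processing notes name bcl2fastq 2.16, STAR 2.5, Cufflinks and mm9; the counter, its annotation and its use of strand are not given in the sources used here.

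From the deposited counts, edgeR 4.0.16 (R 4.3.3) fitted 1 quasi-likelihood model with 6 group means to all 24 libraries, after filterByExpr (minimum count 10, total 15; 15080 genes kept) and TMM scaling, with 18 residual degrees of freedom. Each of 11 comparisons was adjusted by Benjamini-Hochberg over all genes tested, at 0.05. An SE is the log2 fold change over the square root of F. Limma 3.58.1 tested the deposited FPKM as log2(FPKM + 1 or 0.1), and DESeq2 1.42.0 the counts; other settings were RLE scaling, no filter, a stricter filter (8 libraries with CPM 1 or more), only the groups compared, a replicate block, each library left out, and WT day 10 replicates 2 and 3 left out together. The script was tested on simulated counts.

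What a shared replicate number stands for is not stated. Same-numbered libraries deviated together (every correlation over 0.1) in KO against WT at day 10 (0.141 to 0.306) and in WT day 10 against day 5 (0.105 to 0.36), and not in the others. The members and lists were chosen with earlier results of these data known. Named besides the 9 genes are called list genes with the largest changes, 9 genes that may always be named (Tnf, Fasl, Il1b, Il18, Pycard, Nlrp3, Zbp1, Gpx4, Slc7a11), the nearest genes by likeness, and marker lists as sums; Cflar, Acsl6 and Pld4 were added after their values were seen. Summed marker CPM uses all markers found in the count file.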

Additional observations from a re-analysis of the deposited data

Results flagged for a closer look

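Gsdmd, Casp1 and Casp4 responded less to 10 days of obstruction in KO than in WT, by -2.12, -2.99 and -2.64 on the log2 scale in a direct test of the difference. Without WT day 10 replicates 2 and 3 the values were -1.27, -1.41 and -1.45 and none passed. At day 0 these 3 genes were at 1.40, 2.64 and 1.73 in KO against WT, with Casp4 not called. At day 10 they were at -0.72, -0.35 and -0.91 in KO against WT, none called, and at 0.13, 1.22 and 0.28 without both libraries, none called.

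Among 54 combinations of gene and group, 2 held a library far from the other 3 of its group, where chance flags about 1 in 20. Ripk3 stood at 1.68 CPM in KO day 0 replicate 3, against 1.18 to 1.24 CPM in the other KO day 0 libraries. Acsl4 stood at 140.5 CPM in WT day 5 replicate 4, the deepest library, against 91.7 to 95.2 CPM in the other WT day 5 libraries, and the Acsl4 rise at day 5 in WT was 0.64 without it (edgeR adjusted p = 0.0507).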

How the results depend on the processing

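The count of the 9 genes called was recomputed under 34 alternatives. The fits on log2(FPKM + 1) gave 1 gene with the filter and 0 without it for KO against WT at day 0 (3 as reported), 8 for KO day 5 against day 0 and 9 for KO day 10 against day 0 (4 and 5 as reported; also 8 and 9 on log2(FPKM + 0.1)), 2 with the filter and 0 without it for WT day 10 against day 5 (5 as reported; 1 on log2(FPKM + 0.1)), and 0 for the genotype difference at day 10 (3 as reported; 1 on log2(FPKM + 0.1)). Over all genes the log2(FPKM + 1) fits with the filter called 2.62% at day 0, and 63.4% and 70.2% in KO at day 5 and day 10. They called 10.6% for WT day 10 against day 5 and 0.00736% for the genotype difference at day 10. Without the filter the shares were 1.49% at day 0 and 3.19% for WT day 10 against day 5. Fitting only the groups compared gave 5 at day 0 (11.1% of all genes), 7 for KO day 5 against day 0 (43.6%) and 0 for WT day 10 against day 5 (0%). For the genotype difference it gave 4 at day 5 (3.47%) and 0 at day 10 (0.0134%). Leaving out WT day 10 replicates 2 and 3 gave 0 for WT day 10 against day 5 (0% of all genes), 4 for the difference at day 5 (4.22%) and 0 at day 10 (1%), and turned Fas between WT day 10 and day 5 to -0.15 (1.05 as reported), by dropping its 2 highest libraries. DESeq2 and the replicate block gave 1 gene each for the difference at day 5 (0 as reported), where they called 1.71% and 0.703% of all genes. The block also called Casp4 at day 0 (1.75) and Acsl4 in KO at day 5 (0.68), and changed no other call of the 9. The cause of the other moves was not tested.

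With each library left out in turn, the count ran from 1 to 4 for KO against WT at day 0, 0 to 5 at day 10, 0 to 7 for WT day 10 against day 5, 0 to 2 for the difference at day 5 and 1 to 7 at day 10. It stayed at 9 for WT day 10 against day 0 and at 0 for KO against WT at day 5 and KO day 10 against day 5, and ran from 6 to 8 for WT day 5 against day 0 and from 4 to 6 for KO at both days. Over all genes, 642 were called at day 0 (356 on log2(FPKM + 1), 1507 with only those groups, 1273 without both libraries, 296 to 852 with each library left out), 22 between genotypes at day 5 (79 by DESeq2, 116 without both, 9 to 1935 with each left out, the highest without WT day 5 replicate 4) and 217 at day 10 (505 by DESeq2, 21 with the block, 69 without both, 0 with only those groups, 23 to 2045 with each left out, the highest without WT day 10 replicate 4), and the genotype difference called 102 at day 5 (646 without both, 27 to 884 with each left out) and 508 at day 10 (1 on log2(FPKM + 1), 153 without both, 246 to 1811 with each left out). Depth limits Ripk3, Casp1 and Casp4 at WT day 0, which rest on 44, 55 and 48 counts over 4 libraries.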
